A study of Homo sapiens with 8 samples.

Results

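The comparison sets HCT-8 cells given their own CM against HCT-8 cells in unconditioned medium, and its members are 4 of the 8 RNA-seq libraries of the series, chosen by their titles. HCT-8 is a 5-FU-sensitive human colon cancer cell line, and CM (conditioned medium) is medium collected from cells grown in it for 48 h. The groups compared, HCT-8 and CM of HCT-8, had 2 replicates each, are labelled with no drug treatment, and differ by their labels only in whether the medium had been conditioned by the same line. How long the recipient cells stayed in CM is not stated, and the culture medium is Ham's F12 with serum in the sample descriptions but RPMI with serum in the methods of the study. The remaining libraries were the 5-FU-resistant line HCT-8/FU in unconditioned medium and HCT-8 cells given the CM of that resistant line (CM of HCT-8/FU), again 2 each, and they entered the fit that estimated the spread. CM of HCT-8 is the control of the study for CM of HCT-8/FU, and its comparison with unconditioned cells asks which genes differ with conditioning by the own line. Nothing in the labels says that replicates came from separate cultures, so p-values measure the spread between these libraries, which may be technical.

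Conditioned medium contains what cells secreted and lacks what they consumed. The integrated stress response is the pathway by which cells slow translation and raise the transcription factor ATF4 and its target genes when amino acids run short, when unfolded proteins gather in the endoplasmic reticulum (ER) or under other stresses. A separate arm, the unfolded protein response, raises ER chaperones. Entry into S phase depends on E2F transcription factors, which drive the genes of DNA replication and of nucleotide synthesis, and thymidylate synthase of the latter group is the main target of 5-FU.

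Counts on genes came to between 8055150 and 34881349 per library in the 4 libraries compared. Replicate 1 of each group was the shallower one and had more records that were not aligned, 25.1% for HCT-8 and 29.6% for CM of HCT-8, against 4.09% and 4.43% in replicates 2. Within each group the replicates were further apart than sampling noise would place them (median chi-square per gene 1.28 for HCT-8 and 2.06 for CM of HCT-8, where sampling alone gives 0.455) and were kept as separate samples. Colon epithelial identity genes were present at a summed level of 10090 to 12190 CPM (counts scaled to the TMM-normalized library size), and of 22 markers of blood cells, fibroblasts and endothelium 9 had 0 counts in the 4 libraries, among them PTPRC, COL1A2, COL3A1, KDR and CDH5. The 4 markers with over 100 counts were COL1A1 (941), ENG (637), PDGFRB (486) and PECAM1 (119). PDGFRB, 1 of 2 fibroblast markers tested, rose from 4.61 and 4.52 CPM to 6.68 and 9.04 CPM (log2 fold change 0.82, adjusted p = 0.029; 0.053 after the correction for GC content and length described below, quasi-likelihood F-test of edgeR, Benjamini-Hochberg). PDGFRB lost the call without HCT-8 replicate 1 (adjusted p = 0.094), HCT-8 replicate 2 (0.22) and CM of HCT-8 replicate 2 (0.26, the same test), and its part in the results was not tested. The sums of the marker lists were 15.9 to 22.4 CPM for fibroblast, 1.00 to 2.64 CPM for blood and 8.52 to 11.5 CPM for endothelium. In bulk RNA, fewer cells of a kind and less RNA per cell cannot be told apart.

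The 2 media also differed in how counts followed base composition. Genes of high GC content were on balance higher in CM of HCT-8 and genes of low GC content lower, with a Spearman correlation across genes of 0.301 between log2 fold change and the GC content of the exons, and −0.147 with exonic length. The median log2 fold change ran from −0.28 in the tenth of genes with the lowest GC content (median 37.3%) to 0.20 in the tenth with the highest (median 63.9%). The trend was present within replicates 1 (−0.24 to 0.22) as well as within replicates 2 (−0.33 to 0.18). Whether it came from the libraries or from the cells was not tested. Each gene was therefore also tested in a second fit in which every library was corrected for GC content and length, which brought these correlations to 0.0132 and −0.00945, and genes that passed in both fits are marked as such. Of 100 named genes that passed in both, 31 lost the call in the corrected fit without 1 library, 24 of them without HCT-8 replicate 2.

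**Figure D1:**
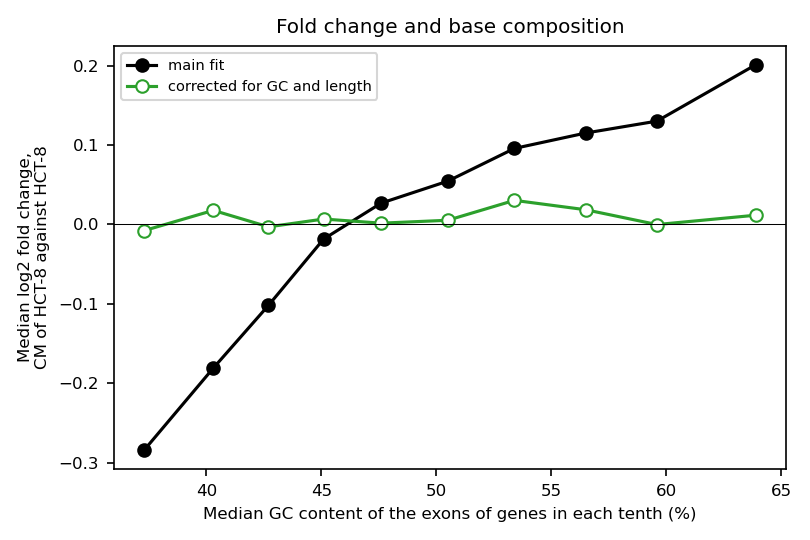
Median log2 fold change of CM of HCT-8 against HCT-8 (y axis) in 10 groups of genes of rising GC content (x axis, median percent of the exons), in the main fit (filled points) and after correction for GC content and length (open points). The main fit climbs from −0.28 to 0.20, and the corrected fit stays between −0.0078 and 0.030.

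Of 20305 genes tested, 1655 were differentially expressed (DE, FDR ≤ 0.05 after Benjamini-Hochberg adjustment and |log2 fold change| ≥ 0.58 in the quasi-likelihood F-test of edgeR). Higher in CM of HCT-8 were 783 genes (3.86% of those tested), and 872 (4.29%) were lower. The balance moved with the scaling, to 617 higher and 1088 lower when DESeq2's size factors replaced TMM. It also moved with the test and with single libraries, to 532 higher and 985 lower in DESeq2 on 4 groups, to 469 and 1005 without HCT-8 replicate 2, and to 933 and 790 without CM of HCT-8 replicate 2. In both fits, 489 genes (2.41%) were higher and 441 (2.17%) lower, and 761 of these 930 genes were protein-coding. The percentages are the background against which the gene lists below are read. The lists were described by counts and medians, beside a median log2 fold change of 0.014 over all genes tested.

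Of the lists with at least 3 DE members in 1 direction, those with the highest shares on the lower side were the integrated stress response (47.1%), the EGFR family with its ligands (41.7%) and ER chaperones (19%). On the higher side they were DNA replication (50%), Wnt targets (47.1%), nucleotide and 5-FU metabolism (40%), TGF-beta and BMP genes (25%) and interferon-stimulated genes (24%). These shares are drawn beside the background in the plot of gene lists. They depended on the fit to different degrees. The count of higher Wnt targets was 8 in the main fit, 4 after the correction and 5 in edgeR on the 2 groups alone. For TGF-beta and BMP genes it was 4, 3 and 3, and for DNA replication 13, 15 and 12.

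**Figure D2:**
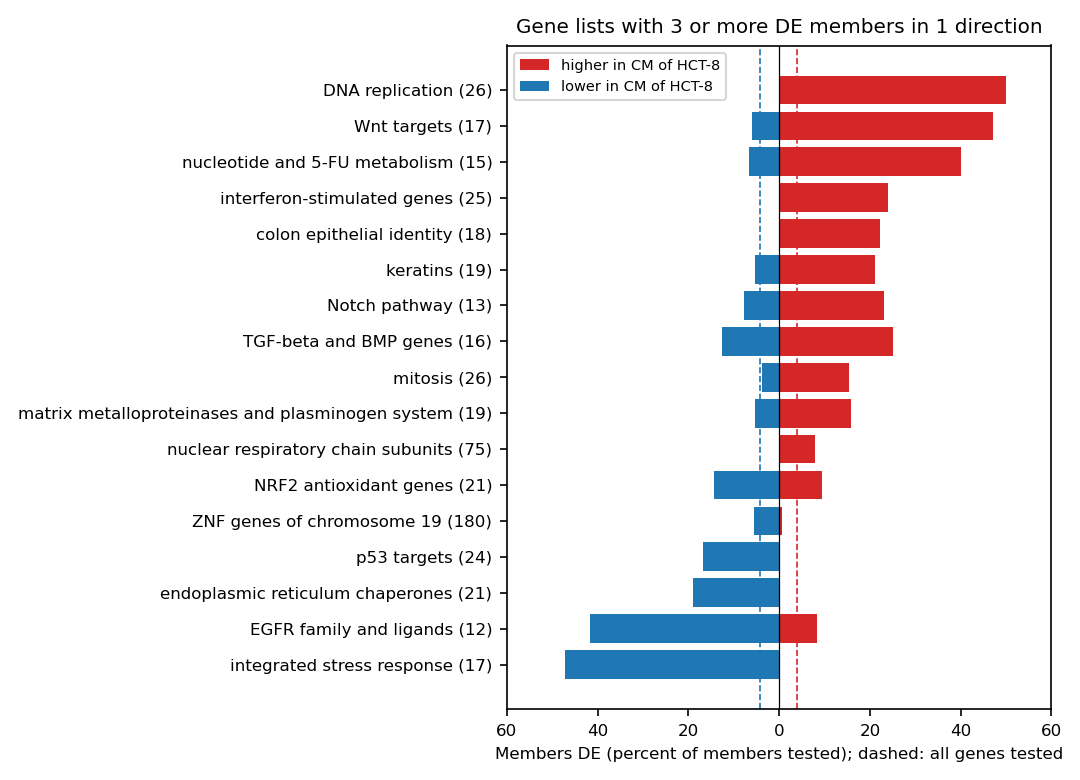
Percent of the tested members of each gene list that were DE and higher (red, to the right) or lower (blue, to the left) in CM of HCT-8, with the number of members tested in brackets, for lists with at least 3 DE members in 1 direction. Dashed lines mark the 3.86% and 4.29% of all genes tested; DNA replication (13 of 26 higher) and the integrated stress response (8 of 17 lower) lie at the ends.

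Genes of the integrated stress response were lower in CM of HCT-8. Of 17 members tested, 8 fell, all of them in both fits, the other 9 did not pass both thresholds, and the median log2 fold change of the list was −0.74 (−0.71 after correction). ATF3, a stress-induced transcription factor on chromosome 1 (ENSG00000162772), stood at 67.8 and 65.2 CPM in the replicates of HCT-8 and at 17.7 and 16.6 CPM in CM of HCT-8. It fell by 1.96 on the log2 scale (standard error 0.12, adjusted p = 4.3e-07, quasi-likelihood F-test of edgeR, Benjamini-Hochberg). The libraries of the 2 groups did not overlap. That held for 928 of the 930 genes DE in both fits, which were chosen for a difference between these groups. The share over all genes tested was not counted. Both replicate numbers showed a similar difference, −1.93 and −1.97.

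The next members encode regulators that act downstream of ATF4. PPP1R15A, the phosphatase subunit that restarts translation, was at 617 and 614 CPM in HCT-8 and at 319 and 272 CPM in CM of HCT-8, and fell by 1.06 on the log2 scale. TRIB3, a pseudokinase that restrains ATF4, went from 828.5 and 887 CPM to 414.5 and 414 CPM, a log2 fold change of −1.05. DDIT3, the transcription factor CHOP, went from 212 and 205.5 CPM to 101 and 100.5 CPM, also −1.05. All 3 genes were thus at about the same fraction of their level in unconditioned medium. Of the exonic bases of DDIT3, 31.6% lie opposite exons of another gene, and whether the counting used strand is not stated.

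The other 4 members that fell were DDIT4, an inhibitor of mTORC1 signalling (log2 fold change −0.92), GDF15, a secreted stress cytokine (−0.90), ASNS, asparagine synthetase (−0.76), and SESN2, a leucine sensor (−0.74). GDF15 stood at 1102 and 1207 CPM in HCT-8 against 615 and 621 CPM in CM of HCT-8. ASNS stood at 548 and 503 CPM against 299 and 322 CPM. ATF4 itself, whose activity is mainly set by translation, did not pass the test (log2 fold change −0.0026, standard error 0.081), with 1130 and 1104 CPM against 1226 and 1006 CPM. The count of 8 was the lowest over the 21 alternatives that kept the fold threshold, and the highest was 10.

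The consensus that ATF4 binds together with C/EBP proteins was sought as TGATGNAA, on both strands, in the promoter windows of RefSeq (GRCh38.p14), from 250 bases before to 50 bases after the gene start. It was present in 4 of the 17 windows found for the list and in 3.67% of 27305 promoters. Of the 8 genes that fell, ATF3 and ASNS held it, and these stretches are shown because they place the motif in 2 genes that moved together. The capitals mark the match, a description of the letters and not a mapped binding site. The stretches lie at chr1:212565196-212565243 (plus strand) and chr7:97872449-97872496 (minus strand), both printed 5′ to 3′ in the direction of the gene.
ATF3: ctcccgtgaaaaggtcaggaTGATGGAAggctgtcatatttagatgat
ASNS: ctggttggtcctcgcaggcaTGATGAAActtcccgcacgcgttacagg

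Among 21 ER chaperones and folding genes, 4 fell, all in both fits, and 17 did not pass both thresholds, with a list median of −0.43. HSPA5 (BiP, ENSG00000044574), the main chaperone of the ER lumen, was at 12050 and 11480 CPM in HCT-8 and at 5468 and 5351 CPM in CM of HCT-8. It fell by 1.12 on the log2 scale (standard error 0.061, adjusted p = 8.3e-08, quasi-likelihood F-test of edgeR, Benjamini-Hochberg). ERN1, the sensor kinase IRE1, went from 123 and 126 CPM to 51.7 and 57.2 CPM (log2 fold change −1.18). SEL1L, an adaptor of ER-associated degradation, had −1.04 and DNAJB9, a co-chaperone of HSPA5, −0.81. DNAJB9 was under the fold threshold in the corrected fit without CM of HCT-8 replicate 1 (−0.57).

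Other ER genes moved less. XBP1, the transcription factor spliced by IRE1, had a log2 fold change of −0.38 and HSP90B1 of −0.39, both past the FDR but not the fold threshold, and CALR had −0.12 and did not pass the test. After the correction 7 members were DE and lower. The ER stress element (CCAAT, 9 bases, then CCACG) was present in 6 of the 20 promoter windows found for the list and in 0.0806% of all promoters. Of the 4 genes that fell, HSPA5 held it, at chr9:125241371-125241429 (minus strand), with the element in capitals.
HSPA5: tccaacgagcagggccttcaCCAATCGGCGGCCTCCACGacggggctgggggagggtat

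**Figure D3:**
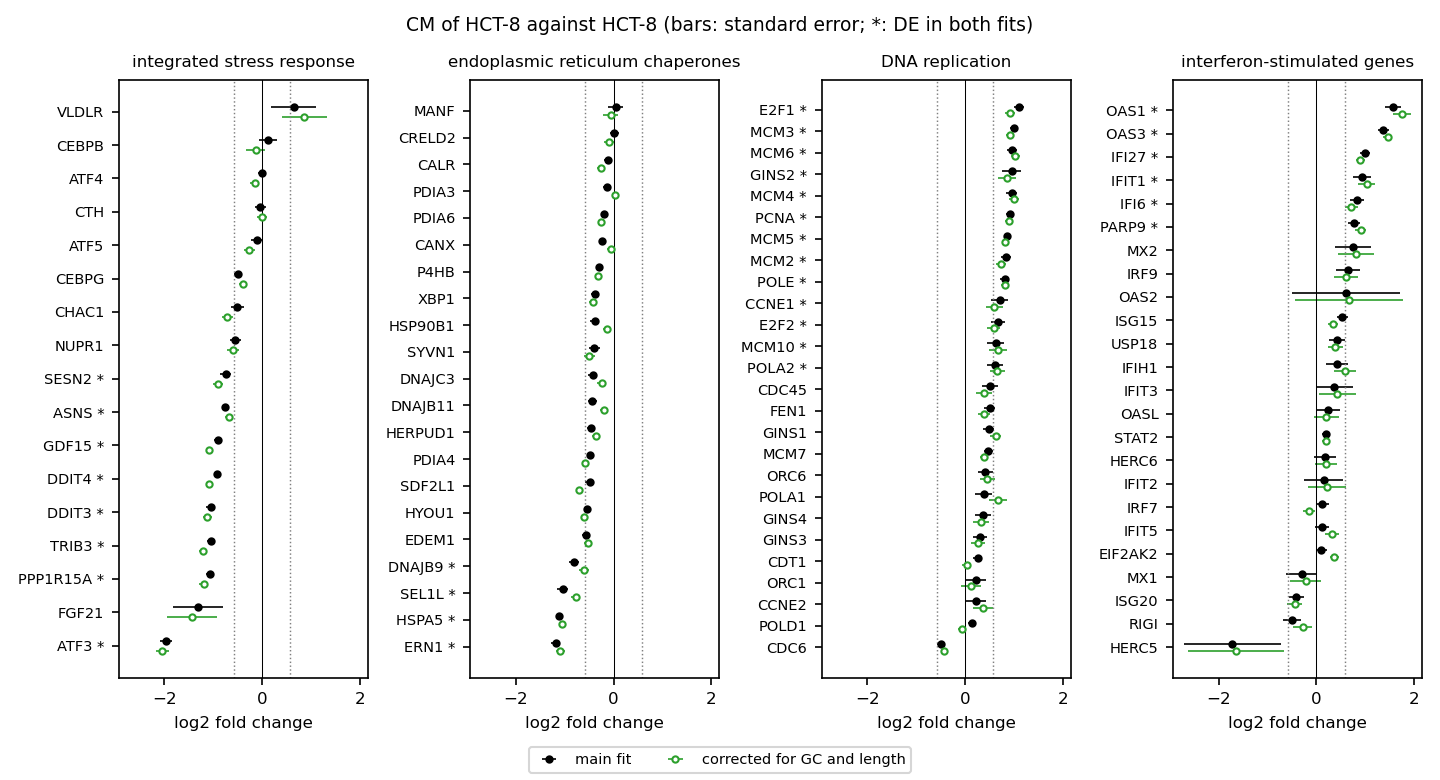
Log2 fold change of CM of HCT-8 against HCT-8 (x axis) with its standard error for the tested members of 4 lists (rows), in the main fit (filled) and after correction for GC content and length (open). Dotted lines mark 0.58 in each direction and stars the members DE in both fits, which number 8 on the lower side for the integrated stress response, 4 lower for ER chaperones, 13 higher for DNA replication and 6 higher for interferon-stimulated genes.

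Lists next to these pathways had few DE members. In the main fit, 10% of cytosolic aminoacyl-tRNA synthetases, 9.09% of serine and one-carbon genes and 5.88% of amino acid transporters were lower. Of all genes tested, 4.29% were lower. A further 5.88% of the transporters were higher, against 3.86% of all genes tested. Of 20 cytosolic aminoacyl-tRNA synthetases, which charge tRNAs and include ATF4 targets, 2 fell in both fits, WARS1 (712 and 631 CPM against 387 and 360 CPM, log2 fold change −0.85) and CARS1 (−0.59). Of 17 amino acid transporters, SLC7A11, the cystine-glutamate exchanger, fell by 1.23 on the log2 scale, from 247 and 238 CPM to 123 and 86.3 CPM. SLC1A3, a glutamate transporter of the same list, rose by 0.73, from 10.9 and 10.1 CPM to 19.1 and 15.9 CPM, and lost the call without HCT-8 replicate 2 (0.59, adjusted p = 0.11, quasi-likelihood F-test of edgeR, Benjamini-Hochberg). MTHFD2, a mitochondrial folate enzyme, was the DE member of 11 serine and one-carbon genes (−0.66) and did not reach the fold threshold after correction (−0.50).

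In polyamine metabolism, 2 of the 10 members fell, SAT1 and SMOX, both catabolic enzymes, while PAOX, another enzyme of polyamine breakdown, had a log2 fold change of −0.12 and did not pass the test. SAT1, which acetylates spermidine and spermine for breakdown or export, went from 597 and 567 CPM to 241 and 216 CPM (log2 fold change −1.35, standard error 0.074). SMOX, spermine oxidase, went from 45.7 and 45.3 CPM to 20.1 and 25.1 CPM (−0.98). The remaining 8 members did not pass both thresholds. Of 25 lysosome and autophagy genes, WIPI1, a phosphoinositide-binding protein of the early autophagosome, fell by 1.24 on the log2 scale, and MAP1LC3B, the membrane-anchored LC3 protein, by 0.86. The other 23 did not pass both thresholds. The list as a whole did not fall, with a median of 0.099 (0.13 after correction), 15 members above 0 and 10 below. GABARAPL1, a relative of LC3 in the list of FOXO and starvation genes, fell by 0.77.

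The list of NRF2 antioxidant genes had members in both directions, with 3 of 21 lower and 2 higher. HMOX1, heme oxygenase, fell from 53.6 and 54.1 CPM to 28.8 and 25.5 CPM (log2 fold change −1.004), and OSGIN1 fell by 0.68 on the log2 scale. SRXN1, sulfiredoxin, had a log2 fold change of 1.39 from low levels (5.53 and 2.40 CPM against 12.6 and 6.22 CPM), where the libraries of replicate 1 and of replicate 2 differed within each group. SRXN1 lost the call without HCT-8 replicate 2 (0.60, adjusted p = 0.41, quasi-likelihood F-test of edgeR, Benjamini-Hochberg), and 6 members were lower without that library.

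Of 24 p53 targets, 4 fell and 20 did not pass both thresholds. GADD45A, a stress-induced growth-arrest protein, went from 85.8 and 86.0 CPM to 52.5 and 47.8 CPM (log2 fold change −0.79). TNFRSF10B, the death receptor DR5, went from 493 and 477 CPM to 295 and 259 CPM (−0.81). SESN2, named above, was the third DE in both fits, and TIGAR was DE in the main fit only. GADD45A, TNFRSF10B and SESN2 are also known to respond to ATF4 and CHOP, and which regulator lay behind their fall was not tested. MDM2, the direct feedback target of p53, did not pass the test (0.085), and CDKN1A (−0.44) did not reach the fold threshold.

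In EGFR signalling, 5 of 12 tested receptors, ligands and regulators fell in CM of HCT-8, 4 of them in both fits, and ERBB2 rose. ERRFI1, a feedback inhibitor that binds the EGFR kinase, went from 593 and 569 CPM to 237 and 237.5 CPM (log2 fold change −1.29, standard error 0.067, adjusted p = 7.9e-08, quasi-likelihood F-test of edgeR, Benjamini-Hochberg). AREG, the ligand amphiregulin, went from 155 and 152 CPM to 76.3 and 66.1 CPM (−1.11). EGFR itself went from 332 and 322 CPM to 204 and 202 CPM (−0.69), and was just under the fold threshold in the corrected fit without HCT-8 replicate 1 (−0.57). ADAM17, a protease that sheds ligands, fell in the main fit only (−0.75).

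HBEGF, another ligand, had a log2 fold change of −0.67, with 39.1 and 41.4 CPM in HCT-8 and 20.3 and 29.04 CPM in CM of HCT-8. HBEGF lost the call without HCT-8 replicate 2 (−0.70, adjusted p = 0.058) and also without CM of HCT-8 replicate 1 (−0.48, adjusted p = 0.017, quasi-likelihood F-test of edgeR, Benjamini-Hochberg). ERBB2, the co-receptor HER2, rose by 0.63, from 138 and 151 CPM to 230.5 and 219 CPM. TGFA (0.13) and EREG (−0.34), ligands as well, did not pass the test. Of 20 AP-1 and immediate early genes 2 fell, the transcription factors EGR1, by 0.75 on the log2 scale, and FOSB, by 0.83. FOSB was low, at 7.24 and 8.13 CPM against 5.41 and 3.69 CPM. It kept the call in 11 of the 21 alternatives with the fold threshold, and had −0.53 without CM of HCT-8 replicate 2. DUSP5, an ERK phosphatase, fell by 0.59 and fell short of the fold threshold when CM of HCT-8 replicate 2 was left out (−0.55). DUSP6 of the same list had 0.12.

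The genes with the largest falls in both fits, ATF3 among them, came from several families. Leading genes were taken as the 10 protein-coding genes of largest fold change in each direction with a mean of at least 5 CPM and groups that did not overlap. IL2RB, a subunit of the receptors for IL-2 and IL-15, went from 9.22 and 10.0 CPM to 1.96 and 1.51 CPM (log2 fold change −2.53, standard error 0.31). TRPV6, an epithelial calcium channel, went from 17.3 and 21.1 CPM to 3.80 and 4.86 CPM (−2.12). KLHDC7B, with kelch repeats, went from 24.5 and 31.4 CPM to 8.17 and 5.50 CPM (−2.12).

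SYNE1, the nuclear envelope protein nesprin-1 with 47523 exonic bases, went from 68.9 and 68.8 CPM to 17.7 and 16.3 CPM and thus fell by 2.03 on the log2 scale (standard error 0.10, adjusted p = 7.4e-08, quasi-likelihood F-test of edgeR, Benjamini-Hochberg). In CM of HCT-8/FU it stood at 49.4 and 46.5 CPM. Next came OSCAR, an immunoglobulin-like receptor (−1.81), FRY, a microtubule-associated protein (−1.80), CMKLR2, a chemerin receptor (−1.79), CDH11, a cadherin (−1.75), and SLC22A15, a membrane transporter (−1.61). SLC22A15 stood at 70.6 and 75.6 CPM against 23.1 and 24.5 CPM in CM of HCT-8.

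The leading genes on the higher side had smaller fold changes and were mostly expressed at low levels in HCT-8. C4orf48 went from 2.501 and 2.395 CPM to 9.55 and 8.63 CPM (log2 fold change 1.89, standard error 0.21). NDUFAF8, an assembly factor of mitochondrial complex I, went from 6.06 and 6.18 CPM to 21.3 and 19.7 CPM (1.73). TNNI2, a troponin subunit, went from 9.61 and 11.2 CPM to 36.4 and 31.8 CPM (1.66).

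UHRF1, which keeps DNA methylation in place during replication, rose by 1.55 on the log2 scale, from 22.8 and 26.7 CPM to 68.02 and 79.1 CPM (standard error 0.12, adjusted p = 1.7e-06, quasi-likelihood F-test of edgeR, Benjamini-Hochberg). CDKN2C, an inhibitor of the cyclin D-dependent kinases, rose by 1.58 from 3.56 and 2.54 CPM to 8.40 and 8.66 CPM. EHF, an epithelial transcription factor of the ETS family, rose by 1.45. C2orf72 (1.67), KRT13 (1.60), OAS1 (1.57) and HES4 (1.53) complete the 10. In the corrected fit CDKN2C (1.02, adjusted p = 0.10) and HES4 (0.68, adjusted p = 0.077, quasi-likelihood F-test of edgeR, Benjamini-Hochberg) lost the call without HCT-8 replicate 2.

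**Figure D4:**
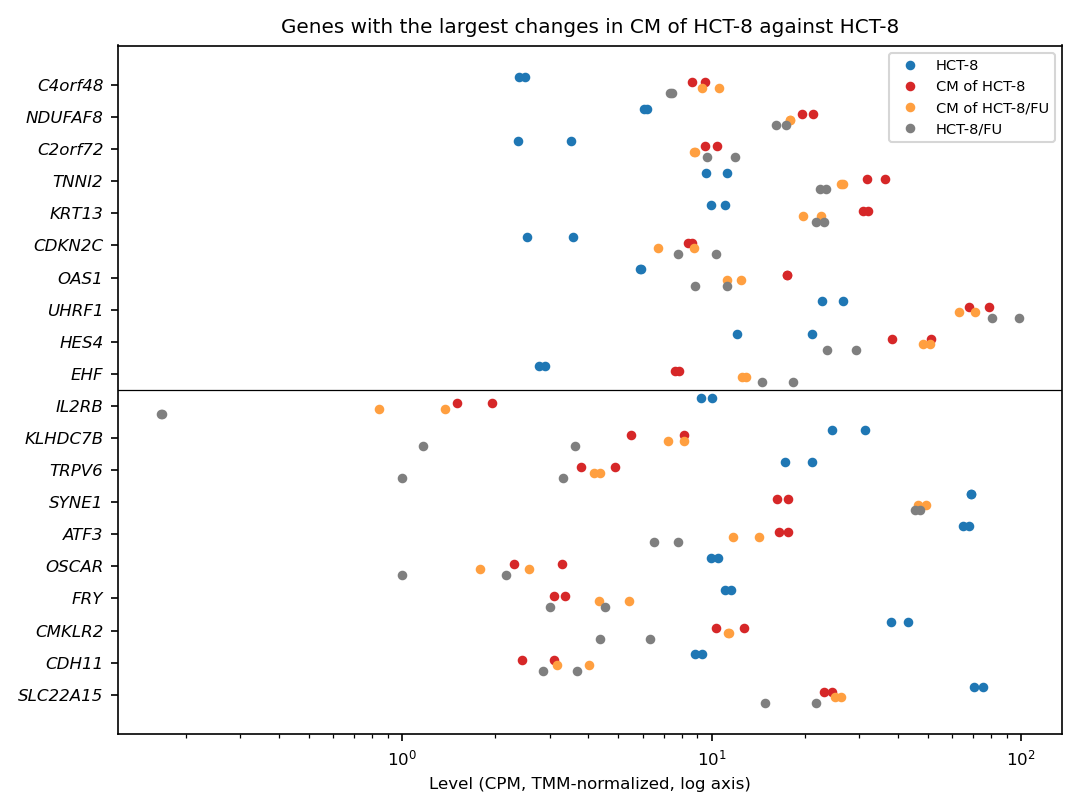
Level in CPM (x axis, log scale) of the 10 leading genes in each direction (rows, higher above the line and lower below) in each of the 8 libraries, coloured by group. Libraries of CM of HCT-8 (red) lie apart from those of HCT-8 (blue) in each row because the genes were chosen so, and SYNE1 in CM of HCT-8/FU (orange, 49.4 and 46.5 CPM) lies near HCT-8 rather than near CM of HCT-8.

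DNA replication genes were higher in CM of HCT-8. Of 26 members, 13 rose, all in both fits, and 13 did not pass both thresholds, with a list median of 0.57 (0.62 after correction). E2F1, the transcription factor that drives S-phase genes, went from 21.6 and 23.4 CPM to 48.6 and 49.2 CPM (log2 fold change 1.11, standard error 0.099, adjusted p = 4.6e-06, quasi-likelihood F-test of edgeR, Benjamini-Hochberg). MCM3, a subunit of the replicative helicase, went from 103 and 109 CPM to 214 and 212 CPM (1.00), and MCM6 from 50.6 and 48.1 CPM to 96.2 and 94.6 CPM (0.96). GINS2, of the same helicase complex, rose by 0.96, and lost the call in the corrected fit without HCT-8 replicate 2 (adjusted p = 0.058) and without CM of HCT-8 replicate 2 (adjusted p = 0.067, quasi-likelihood F-test of edgeR, Benjamini-Hochberg).

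Of the MCM helicase, 5 subunits reached the fold threshold, since MCM2 (0.84), MCM4 (0.95) and MCM5 (0.87) rose as well, while MCM7 had 0.48. PCNA, the sliding clamp, went from 69.6 and 63.1 CPM to 124 and 125 CPM (0.92), and POLE, the leading-strand polymerase, rose by 0.81. CDC6, a loader of the MCM helicase, went the other way with a log2 fold change of −0.49, past the FDR (adjusted p = 0.0003, quasi-likelihood F-test of edgeR, Benjamini-Hochberg) but not the fold threshold. CDT1, its partner, had 0.26. Over the 21 alternatives with the fold threshold, the count of higher members lay between 9 and 15.

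E2F elements were sought as TTTCCCGC and TTTGGCGC on both strands. The first was in 6 and the second in 7 of the 22 promoter windows found for the list, and in 1.66% and 0.659% of all promoters. Among the genes that rose, MCM3, GINS2 and PCNA held the first, and MCM6, POLE, E2F1 and E2F2 the second. Those of E2F1 (chr20:33686386-33686425), MCM6 (chr2:135876506-135876615) and PCNA (chr20:5126654-5126701), all on the minus strand, are shown as examples of either form, with the element in capitals and that of PCNA in the reverse direction.
E2F1: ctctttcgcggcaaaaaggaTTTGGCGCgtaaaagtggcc
MCM6: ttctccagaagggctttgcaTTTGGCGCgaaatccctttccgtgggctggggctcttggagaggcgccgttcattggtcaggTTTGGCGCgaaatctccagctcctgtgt
PCNA: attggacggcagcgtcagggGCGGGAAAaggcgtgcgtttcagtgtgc

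Enzymes of nucleotide synthesis rose with the replication genes, 6 of 15 members, all in both fits. RRM2, the regulated subunit of ribonucleotide reductase, went from 62.1 and 52.9 CPM to 136 and 143 CPM (log2 fold change 1.30). TK1, thymidine kinase, went from 47.5 and 48.9 CPM to 95.6 and 106 CPM (1.07). TYMS, thymidylate synthase, went from 45.8 and 43.7 CPM to 79.9 and 89.1 CPM (0.93).

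Of the exons of TYMS, 47.9% lie opposite exons of another gene, so that its value is uncertain without knowledge of strand. CTPS1 (0.78) and DUT (0.76) rose as well, and CTPS1 lost the call without HCT-8 replicate 2 (0.55, adjusted p = 0.069, quasi-likelihood F-test of edgeR, Benjamini-Hochberg). UPP1, uridine phosphorylase, which can activate 5-FU, fell from 44.2 and 48.5 CPM to 19.8 and 32.4 CPM (−0.78). UMPS, which also activates 5-FU, did not pass the test (−0.030).

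Mitotic genes were less uniform. Of 26, 4 rose in both fits, KIF20A, a kinesin of cytokinesis (log2 fold change 1.38), AURKB, a kinase of chromosome segregation (1.08), BUB1B, of the spindle checkpoint (0.83), and CCNA2, cyclin A (0.77). In the corrected fit AURKB lost the call without HCT-8 replicate 2 (adjusted p = 0.051, quasi-likelihood F-test of edgeR, Benjamini-Hochberg). BUB1B was under the fold threshold without HCT-8 replicate 2 (0.57), and the count was 9 without CM of HCT-8 replicate 2. MKI67, the proliferation marker, had 119 CPM in replicate 1 of CM of HCT-8 and 78.8 CPM in replicate 2, and did not pass the test (0.20, with 86.0 and 84.2 CPM in HCT-8). TOP2A (0.40) did not pass it either. CENPE, a long kinetochore motor, had −0.74 in the main fit and −0.36 after correction. Replication-dependent histones, measured on captured mRNA, had 0 DE members of 22.

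Interferon-stimulated genes were in part higher. Of 25 members, 6 rose, all in both fits, and 19 did not pass both thresholds, with a list median of 0.37. OAS1, a sensor of double-stranded RNA, went from 5.92 and 5.88 CPM to 17.5 and 17.5 CPM (log2 fold change 1.57), and its neighbour OAS3 from 30.4 and 30.4 CPM to 79.3 and 78.4 CPM (1.37, standard error 0.11). IFI27 rose by 0.99, from 40.3 and 42.5 CPM to 80.8 and 84.8 CPM, IFIT1 by 0.94, IFI6 by 0.83 and PARP9 by 0.76. IFIT1 lost the call without HCT-8 replicate 2 (0.71, adjusted p = 0.089, quasi-likelihood F-test of edgeR, Benjamini-Hochberg). MX1, an antiviral GTPase, had −0.30 and did not pass the test, and ISG15 had 0.53.

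The core of the interferon-stimulated response element (GAAA, 2 bases of any kind, then GAAA) was in 14 of 21 promoter windows of this list and in 3.65% of all promoters. Of the 6 genes that rose, IFIT1, IFI6, IFI27 and OAS3 held it. The stretches of IFIT1 (chr10:89392487-89392549) and IFI27 (chr14:94110608-94110670), both on the plus strand, each hold 2 matches in capitals. Both matches of IFIT1 and the first of IFI27 read in the reverse direction.
IFIT1: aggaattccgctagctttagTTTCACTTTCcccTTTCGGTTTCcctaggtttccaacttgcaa
IFI27: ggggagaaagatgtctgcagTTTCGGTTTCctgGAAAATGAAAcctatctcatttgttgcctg

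Related immune genes moved in smaller numbers. TAPBP, which loads peptides on HLA class I, rose by 0.65 and fell short of the fold threshold when CM of HCT-8 replicate 1 was left out (0.54). ERAP2, a peptide-trimming protease, rose by 0.66 and was under it without HCT-8 replicate 2 (0.53) and without CM of HCT-8 replicate 1 (0.55). NFKBIA, the inhibitor of NF-kappaB, rose from 25.5 and 25.6 CPM to 52.6 and 44.7 CPM (0.91) and was the DE member of 12 feedback genes of that pathway. CXCL5, a neutrophil chemokine, had a log2 fold change of 1.96 at low levels (1.98 and 1.36 CPM against 7.71 and 4.78 CPM) and lost the call without HCT-8 replicate 2 (1.51, adjusted p = 0.28, quasi-likelihood F-test of edgeR, Benjamini-Hochberg). IL1A, an alarmin, had −1.91, from 3.16 and 1.80 CPM to 0.576 and 0.640 CPM. IL1A lost the call without HCT-8 replicate 1 (−1.54, adjusted p = 0.076) and without CM of HCT-8 replicate 2 (−1.997, adjusted p = 0.061, the same test).

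Wnt targets were higher in CM of HCT-8, 8 of 17 in the main fit and 4 in both fits, with 1 lower in the main fit only. AXIN2, a feedback inhibitor of the pathway, went from 134 and 137 CPM to 267 and 227 CPM (log2 fold change 0.86). LGR5, the receptor that marks intestinal stem cells, went from 8.03 and 8.07 CPM to 15.8 and 14.2 CPM (0.88), and ASCL2, a transcription factor of the same cells, from 7.77 and 5.14 CPM to 14.96 and 13.5 CPM (1.23). In the corrected fit ASCL2 lost the call without HCT-8 replicate 2 (0.49, adjusted p = 0.23, quasi-likelihood F-test of edgeR, Benjamini-Hochberg). CD44, an adhesion receptor, had 0.83 at 4.17 to 10.4 CPM and lost the call without HCT-8 replicate 2 (0.46, adjusted p = 0.42) and also without CM of HCT-8 replicate 1 (0.58, adjusted p = 0.098, quasi-likelihood F-test of edgeR, Benjamini-Hochberg). The count of higher members was 4 without HCT-8 replicate 2. EPHB3 (0.68), SP5 (0.71) and SOX9 (0.60) did not reach the fold threshold after correction.

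Of 18 genes of colon epithelial identity, 4 rose and 14 did not pass both thresholds. CDX1, an intestinal transcription factor, went from 32.9 and 29.2 CPM to 64.8 and 66.1 CPM (log2 fold change 1.10). VIL1, villin of the brush border, went from 159 and 150.1 CPM to 276 and 262.5 CPM (0.80), and 44.2% of its exonic bases lie opposite another gene. CDX2 (0.68) and KRT20 (0.69) were DE in the main fit only. Without CM of HCT-8 replicate 2, 6 members were higher.

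Of 19 keratins, 4 rose and 1 fell. KRT13 went from 11.1 and 9.99 CPM to 32 and 30.96 CPM, KRT4 rose by 1.81 on the log2 scale from 1.32 and 1.57 CPM, and KRT16 fell by 1.34, from 9.48 and 10.3 CPM to 3.34 and 4.29 CPM. KRT13 and KRT4 form a pair in non-cornified squamous epithelium, and KRT16 is a keratin of stressed epidermis. KRT4 lost the call in the corrected fit without HCT-8 replicate 2 (adjusted p = 0.083, quasi-likelihood F-test of edgeR, Benjamini-Hochberg). KRT14 (1.69) stood under 2 CPM in every library compared, and lost the call without HCT-8 replicate 1 or 2 and without CM of HCT-8 replicate 2 (adjusted p = 0.061, 0.16 and 0.082, quasi-likelihood F-test of edgeR, Benjamini-Hochberg). KRT14 and KRT16 have close copies in the genome that can take up their reads, which leaves their values uncertain. The number of keratins that rose was 2 without HCT-8 replicate 1 or 2.

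In the Notch pathway, HES1, a target repressor, rose from 25.9 and 23 CPM to 59.9 and 48.3 CPM (log2 fold change 1.15), and HES4 from 21.2 and 12.1 CPM to 51.1 and 38.4 CPM. HEY1, a further repressor of the family, went the other way (−1.34, with 4.35 and 2.99 CPM against 1.27 and 1.47 CPM). HEY1 lost the call without HCT-8 replicate 1 (adjusted p = 0.14), CM of HCT-8 replicate 1 (0.061) and CM of HCT-8 replicate 2 (0.081, quasi-likelihood F-test of edgeR, Benjamini-Hochberg). Among 16 genes of TGF-beta and BMP signalling, ID2, a target of BMP, rose by 0.82, from 86.2 and 83.5 CPM to 152 and 147 CPM. SMAD6, the inhibitor of BMP signalling, rose by 1.03 and ID1 by 0.89. SKIL, a repressor of SMAD proteins, fell by 1.06 on the log2 scale and PMEPA1, a TGF-beta target, by 0.64. In the corrected fit SKIL lost the call without HCT-8 replicate 1 (−0.59, adjusted p = 0.14) and without CM of HCT-8 replicate 2 (−0.70, adjusted p = 0.12), and SMAD6 without HCT-8 replicate 2 (0.76, adjusted p = 0.067, quasi-likelihood F-test of edgeR, Benjamini-Hochberg). ID1 lost the call without HCT-8 replicate 2 (0.71, adjusted p = 0.05) and fell short of the fold threshold when CM of HCT-8 replicate 2 was left out (0.54). The number of higher members of this list was 2 without HCT-8 replicate 2.

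A few genes of other lists stood out by level. H19, an imprinted long non-coding RNA, went from 4423 and 4093 CPM to 9672 and 8364 CPM (log2 fold change 1.08, standard error 0.081). S100A4, a calcium-binding protein, went from 185 and 180.0 CPM to 379 and 383 CPM (1.06). PKM, pyruvate kinase, rose by 0.70, the DE member of 23 glycolysis genes, and was under the fold threshold without HCT-8 replicate 2 (0.57). CA12, a carbonic anhydrase, rose by 0.75, and MMP13, a collagenase, fell by 0.83 on the log2 scale.

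Large families had few DE members. Among 75 nuclear respiratory chain subunits the median log2 fold change was 0.23 in both fits, with 58 above 0 and 17 below. Of these 75, 6 were DE and higher (8%, against 3.86% of all genes tested) and 2 of these in both fits, NDUFB10 (0.77) and ATP5F1E (0.65). This number depended on single libraries, since it was 18 in the absence of CM of HCT-8 replicate 2, and 1 when HCT-8 replicate 2, or when CM of HCT-8 replicate 1, was missing. NDUFB10 and ATP5F1E both lost the call without HCT-8 replicate 2 (adjusted p = 0.055 and 0.31, quasi-likelihood F-test of edgeR, Benjamini-Hochberg) and fell short of the fold threshold when CM of HCT-8 replicate 1 was left out (0.51 and 0.34). Among 180 zinc finger genes of chromosome 19, 4 were lower in both fits, with ZNF780B first (−1.45). In the corrected fit without HCT-8 replicate 2, ZNF780B had −1.08 and lost the call. In the main fit 1 of the 180 was higher and 10 were lower, 5.56% against 4.29% of all genes tested. Their count was 5 without HCT-8 replicate 1 and 13 without CM of HCT-8 replicate 1.

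No member was DE in 13 of the 54 lists, among them 79 cytosolic ribosomal proteins (median log2 fold change 0.10), 37 proteasome subunits (−0.058), 14 fatty acid synthesis genes (0.045), 16 YAP and TEAD genes (0.064), 23 integrins (0.0044), 27 snoRNA host genes (0.086) and 21 splicing factors and their kinases (0.032). Of the 273 genes tested in these 13 lists, 81 had an unadjusted p under 0.05 in edgeR, against 6247 of all genes tested. The FDR alone was passed by 42 of the 273, against 3949 of all genes tested, but not the fold threshold. In DESeq2 on 4 groups 0 were DE, and 33 had no adjusted p. The 13 mitochondrially encoded subunits, another of these lists, were all above 0 (median 0.26, and 0.33 after correction, where 1 was DE). Of 25 genes of cholesterol synthesis and uptake, STARD4 alone was DE in the main fit (−0.82), and after the correction it had −0.49.

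UHMK1, the kinase that the study followed, stood at 119 and 135 CPM in HCT-8 and at 111 and 122 CPM in CM of HCT-8. The log2 fold change was −0.13 (standard error 0.081, adjusted p = 0.33, quasi-likelihood F-test of edgeR, Benjamini-Hochberg), and the groups overlapped. After the correction for GC content and length it was 0.18 (standard error 0.098, adjusted p = 0.25, the same test), so that its sign depended on the fit. COIL, which encodes coilin of the Cajal body, stood at 23.3 and 17.95 CPM against 20.3 and 22.3 CPM (0.098, standard error 0.16). Of 19 Cajal body components, NPAT, a histone gene activator, was DE in the main fit (−0.63), and it did not pass after correction (−0.37) or without HCT-8 replicate 2 (−0.62, adjusted p = 0.072) and without CM of HCT-8 replicate 2 (−0.48, adjusted p = 0.10, quasi-likelihood F-test of edgeR, Benjamini-Hochberg).

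The levels in the other groups were set beside these. The comparison of CM of HCT-8/FU with CM of HCT-8 shares the libraries of CM of HCT-8. For all 8 stress response genes that fell, both libraries of HCT-8 lay above the 6 libraries of the remaining groups. The same held for 66.2% of the 441 genes lower in both fits. For all 13 replication genes that rose, both libraries of HCT-8 lay below the other 6, as they did for 89.8% of the 489 genes higher in both fits. Among genes DE in both fits, HCT-8 thus stood apart from the other 3 groups in most, inside and outside these lists. These genes were chosen because HCT-8 and CM of HCT-8 differed in them, and in 928 of the 930 these groups did not overlap. HCT-8 lying outside CM of HCT-8 was thus set by the choice, which also favours HCT-8 lying outside the other groups. The share over genes not chosen in this way was not counted.

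ATF3 stood at 14.2 and 11.7 CPM in CM of HCT-8/FU and at 7.78 and 6.52 CPM in HCT-8/FU, both under the 17.7 and 16.6 CPM of CM of HCT-8. HSPA5 stood at 5052 and 5019 CPM in CM of HCT-8/FU and at 3233 and 2957 CPM in HCT-8/FU. Relative to the mean of HCT-8 on the log2 scale, the median of the 8 stress genes was −0.98 in CM of HCT-8, −1.12 in CM of HCT-8/FU and −1.99 in HCT-8/FU. That of the 13 replication genes was 0.87, 0.72 and 0.86.

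**Figure D5:**
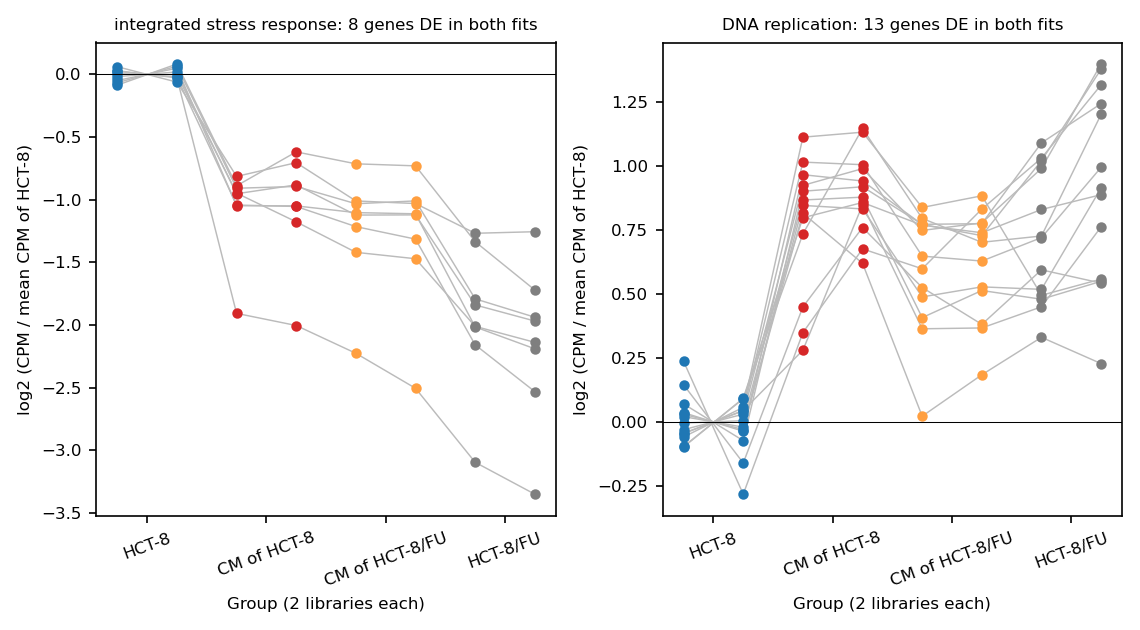
Level of each gene relative to its mean in HCT-8 (y axis, log2 of the ratio of CPM) in the 8 libraries by group (x axis), for the 8 stress response genes (left) and the 13 DNA replication genes (right) that were DE in both fits; each grey line joins the values of 1 gene. The stress genes lie between −0.62 and −2.0 in CM of HCT-8, and the replication genes between 0.28 and 1.14.

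Some genes differed between the CM groups, which were compared in the main fit only, without the correction for GC content and length. The deviation of a library from the mean of all 8 had a Spearman correlation with GC content of 0.375 and 0.534 in CM of HCT-8. In CM of HCT-8/FU it was −0.0652 and −0.0619. SYNE1 (43.9%), SLC7A11 (35.4%) and SKIL (36.6%) had less GC than the median gene (49%), and the part of this trend in their differences was not tested. SYNE1 was higher in CM of HCT-8/FU than in CM of HCT-8 by 1.51 on the log2 scale (adjusted p = 3.9e-07, quasi-likelihood F-test of edgeR, Benjamini-Hochberg), at 45.5 and 47.1 CPM in HCT-8/FU. SLC7A11 was higher there by 1.14, at 233 and 221 CPM, against 247 and 238 CPM in unconditioned HCT-8. SKIL was higher by 1.48, at 14.9 and 14.3 CPM. These 3 genes thus had a lower uncorrected level in CM of HCT-8 than in each of the other groups. For TRIB3 (−0.059), HSPA5 (−0.10), ERRFI1 (−0.026) and AREG (−0.097), the same test between the CM groups was not passed. Other members of these lists differed. PPP1R15A (log2 fold change −0.38, adjusted p = 0.0033) and ATF3 (−0.39, adjusted p = 0.042, the same test) were lower in CM of HCT-8/FU. SEL1L (0.70, adjusted p = 0.00028) and EGFR (0.41, adjusted p = 0.00042, the same test) were higher there. SEL1L (38.9%) and EGFR (46.7%) also had less GC than the median gene.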

How the data were processed

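RNA-seq counts of 8 libraries were analysed, 2 per group, grouped by their titles. Paired reads of 150 bases had been aligned by the authors with HISAT2 (GRCh38) and assigned to Ensembl 94 genes by HTSeq 0.11.2, and raw counts were deposited. The files also include the authors' DESeq2 tables of other comparisons (fold changes and p-values), which were not used. Records that name no gene were left out of library sizes (59.2% to 70.3% of a library's records among the 4 compared).

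Tests used edgeR 4.0.16 under R 4.3.3 (TMM, filterByExpr, quasi-likelihood test, Benjamini-Hochberg adjustment over 20305 genes), with 4 group means, no replicate block, and the thresholds of the study. The second fit subtracts, library by library, splines (5 degrees of freedom each) on GC content and on log2 exonic length from GENCODE 44 (19857 genes), which removes any change that follows them, whatever its origin. Fits were tested on simulated data. Named genes are the 10 leading genes per direction, up to 4 members per list DE in both fits (otherwise up to 2 DE in the main fit, or the most abundant), UHMK1 and COIL. Further members were named after their values were seen. Members and lists were chosen with earlier results of these data known. A few list members are not reported by name here.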

Additional observations from a re-analysis of the deposited data

How the results depend on the processing

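The count of 1655 DE genes was 1705 with DESeq2's size factors, 1517 with DESeq2 1.42.0 on 4 groups, 1778 without a filter, 1635 with a stricter one, and 1265 in edgeR on the 2 groups alone. It was 1054 (473 higher, 581 lower) in DESeq2 on the 2 groups alone and 3949 (1836 and 2113) at the FDR alone. With the correction for GC content and length it was 1145 (604 and 541), and 885 (445 and 440) on the 2 groups alone. Leaving out each of the 4 libraries in turn gave 1274 to 1832 DE genes (469 to 933 higher, 706 to 1058 lower), and in the corrected fit 885 to 1383 (333 to 771 higher, 467 to 612 lower), with 944 (477 and 467) without HCT-8 replicate 1 and 885 (333 and 552) without HCT-8 replicate 2. Added after the data were seen were another TMM reference library (1655) and a covariate marking the libraries above 15% unaligned records (1843). Also added was a test without genes that had at least 90% of their exonic bases opposite another gene (1621). DDIT3, TYMS and VIL1 were under that limit and stayed in. The replicate block gave 1595 DE genes, 1568 of them shared, and 1089 (517 lower) with the correction. Deviations of same-numbered replicates of the groups compared had a correlation of 0.132, with only 2 pairs, so the numbers were not taken as a pairing.

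Of 105 named DE genes, 64 kept the call in all 21 alternatives with the fold threshold, and none changed direction in an alternative that tested it. Named genes that were not DE could change sign, among them UHMK1 (−0.21 to 0.29) and COIL (−0.19 to 0.28). Without 1 library, 26 lost it in the main fit, 21 of them without HCT-8 replicate 2, the deepest library. Of 100 named genes DE in both fits, 31 lost it in the corrected fit, 24 of them without that library, and 36 in either fit. The depth of the shallow replicates 1 limits genes of a few CPM. The cause of these losses was not tested.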
